A study of Mus musculus with 4 samples.

Results

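The genes described here are 35 genes of DNA double-strand break repair and its checkpoint, chosen by symbol from a list of known pathway members and all found among the 51508 genes of the table that could be used. They fall into 11 genes of damage sensing and checkpoint signalling, 12 of homologous recombination, 4 of the Fanconi pathway and 8 of end joining. They were measured by RNA sequencing in intestinal organoids, self-organised epithelial cultures, from wild type C57BL/6 mice aged 8 to 12 weeks. All organoids had received 8 Gy of radiation 36 hours before their RNA was taken, and they were given either vehicle or SGC-CBP30, a compound that occupies the acetyl-lysine pocket of the CBP and p300 bromodomains. Each group held 2 libraries, and no unirradiated organoids were analysed here, so the values compare treatments after irradiation and not the response to radiation. The treatment label of SGC-CBP30 replicate 2 reads SGC-CBP31. Its title places it in the SGC-CBP30 group, and each call among the 35 genes is therefore also given without it, as are the counts of the other lists.

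Radiation breaks both strands of DNA. The MRN complex of MRE11, RAD50 and NBS1 binds the ends and activates the kinase ATM, which marks the surrounding chromatin by phosphorylating histone H2AX, while ATR responds to single-stranded DNA. These kinases signal through CHK2 and CHK1 to halt the cell cycle. Breaks are then rejoined directly by end joining, which works throughout the cycle, or copied from the sister chromatid by homologous recombination, which works in S and G2 phase and for which BRCA1 and BRCA2 are known. The Fanconi pathway handles crosslinked DNA and feeds into recombination. In the intestine, the dividing crypt cells are the ones most sensitive to radiation.

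The libraries held 16433117 to 18087250 counts. Markers fixed for the intestinal epithelium (10 genes, among them Epcam, Cdh1 and Vil1) summed to 9900 and 9950 CPM in vehicle and 12500 and 11400 CPM in SGC-CBP30 libraries, where CPM are counts scaled by the adjusted total of each library. In the edgeR test described below 5 of them were higher (Krt8, Krt18, Krt19, Lgals4 and Elf3) and 1 was lower (Cdx2). The other 4 did not pass, Epcam, Cdh1 and Vil1 among them. Markers of fibroblasts (10 genes) summed to 17.1 and 17.8 CPM in vehicle and 13.5 and 11 CPM in SGC-CBP30 libraries, those of leukocytes (10 genes) to 8.10 and 5.77 against 4.76 and 4.39 CPM, and those of endothelium (7 genes) to 1.94 to 2.76 CPM over all 4 libraries. Vim made up most of the fibroblast sum, at 15.6 and 16.6 CPM in vehicle and 10.1 and 9.11 CPM in SGC-CBP30 libraries. The collagen genes went the other way at very low counts. Col1a1 had 0 and 0 counts in vehicle and 9 and 2 in SGC-CBP30 libraries, Col1a2 0 and 0 against 1 and 1, and Col3a1 1 and 1 against 16 and 7. Pdgfra, Pdgfrb, Dcn and Acta2 overlapped between groups, and Lum and Thy1 had no count in any library. The sum therefore does not give a direction for the fibroblast markers as a set. The part of these shifts in any result below was not tested.

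Of the 35 genes, 5 were lower and 3 were higher with SGC-CBP30 (edgeR, called at a p under 0.05 after Benjamini-Hochberg adjustment over every tested gene), and 27 did not pass. Those that fell were the recombination genes Brca1, Brca2 and Rad54l and the checkpoint kinase genes Chek1 and Chek2. Those that rose were Rbbp8, which encodes the end resection factor CtIP, and the end joining genes Prkdc and Dclre1c. The share called, 22.9%, lay below the 30.0% of all 14684 tested genes, of which 16.3% were lower and 13.6% higher. At an unadjusted p under 0.05 there were 15 of the 35 genes, and 5745 of all tested genes. The groups did not overlap in CPM for 24 of the 35 genes, against 63.1% of all tested genes. The 35 genes are thus called no more often than genes in general, and their results concern the individual genes and not the pathway as a whole.

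The directions differed in how firmly they held. Brca1, Chek1, Chek2 and Rad54l were called under each of 10 other settings, and Brca2 under 8 of them. The 3 genes that rose were all lost without vehicle replicate 2 and with DESeq2, which called 0 higher and 4 lower. Without SGC-CBP30 replicate 2 the same 3 genes lost their call, 1 other gene was higher and 7 were lower. The authors' deposited table holds 4 of the 35 genes under an adjusted p of 0.05 (Brca1, Chek1, Chek2 and Rad54l), against 11.4% of the 23932 genes to which it gives an adjusted p.

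**Figure D1:**
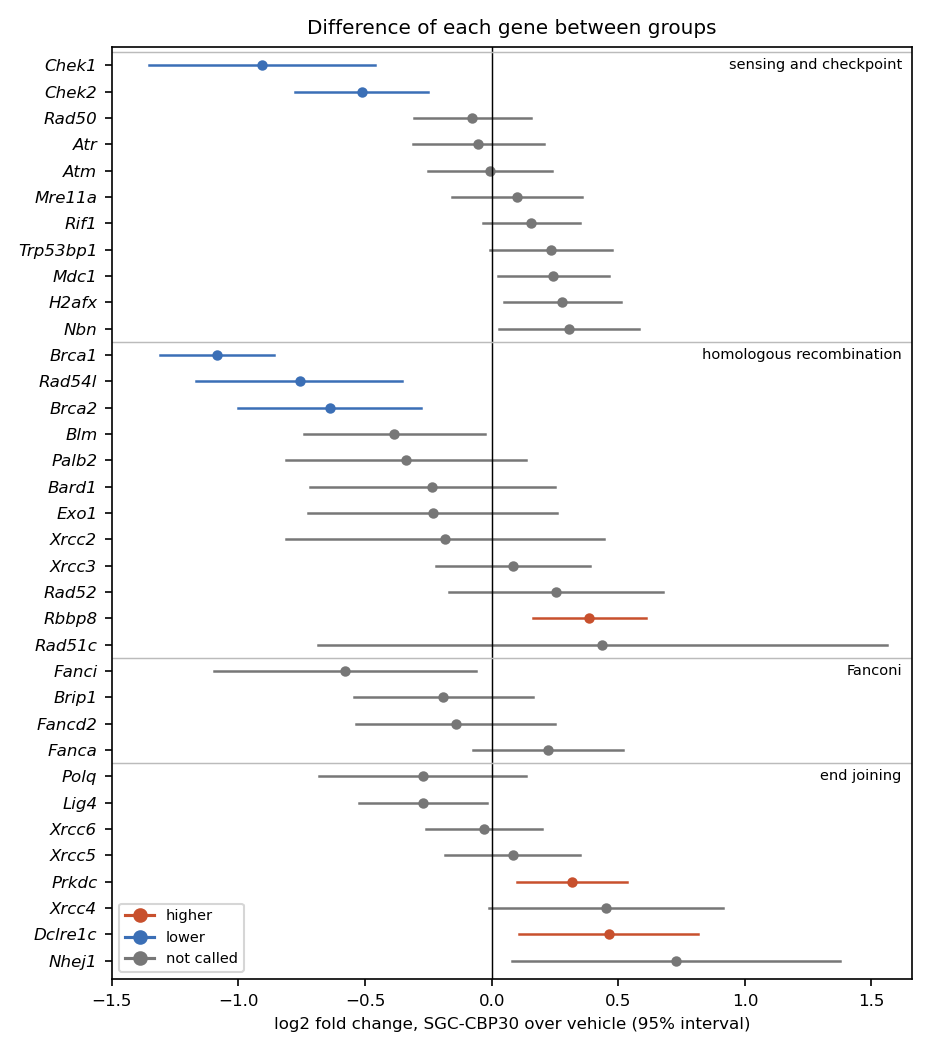
The log2 fold change of each of the 35 genes, SGC-CBP30 over vehicle, is plotted with its 95% interval, grouped by role and ordered by size, with called genes in colour. The 5 genes in blue lie left of zero with Brca1 at -1.08, and the 3 in red lie right of it.

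On the length-scaled FPKM of the deposited table, these were genes of low to moderate level. Their median over genes was 1.57 FPKM, against 4.49 FPKM for all tested genes. By role the median was 4.10 FPKM for sensing and checkpoint, 2.56 for end joining, 1.14 for Fanconi and 0.918 for recombination genes. H2afx, the gene of histone H2AX, was the most abundant at a mean of 17.3 FPKM in vehicle and 21 FPKM in SGC-CBP30 libraries. Rbbp8 (7.11 and 9.30 FPKM), Xrcc5 (7.03 and 7.46), Chek2 (6.93 and 4.85), Rad50 (6.60 and 6.26) and Nbn (6.38 and 7.91) came next in the vehicle order. The place of Rbbp8 rests on its deposited length of 3867 bases, against 12521 exonic bases in the annotation, while the other 34 genes have equal lengths in both. Its FPKM is uncertain for that reason, and among these 5 each range over the vehicle libraries overlapped or touched that of its neighbour. Brca1 stood at 4.97 FPKM in vehicle libraries, close to Xrcc3 (5.02 FPKM), and at 2.34 FPKM in SGC-CBP30 libraries. Rad51c, a recombination gene, was the least abundant, with only 23 and 6 counts in vehicle and 19 and 21 counts in SGC-CBP30 libraries, too few to show any but a large difference. All 35 genes passed the filter on low counts.

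**Figure D2:**
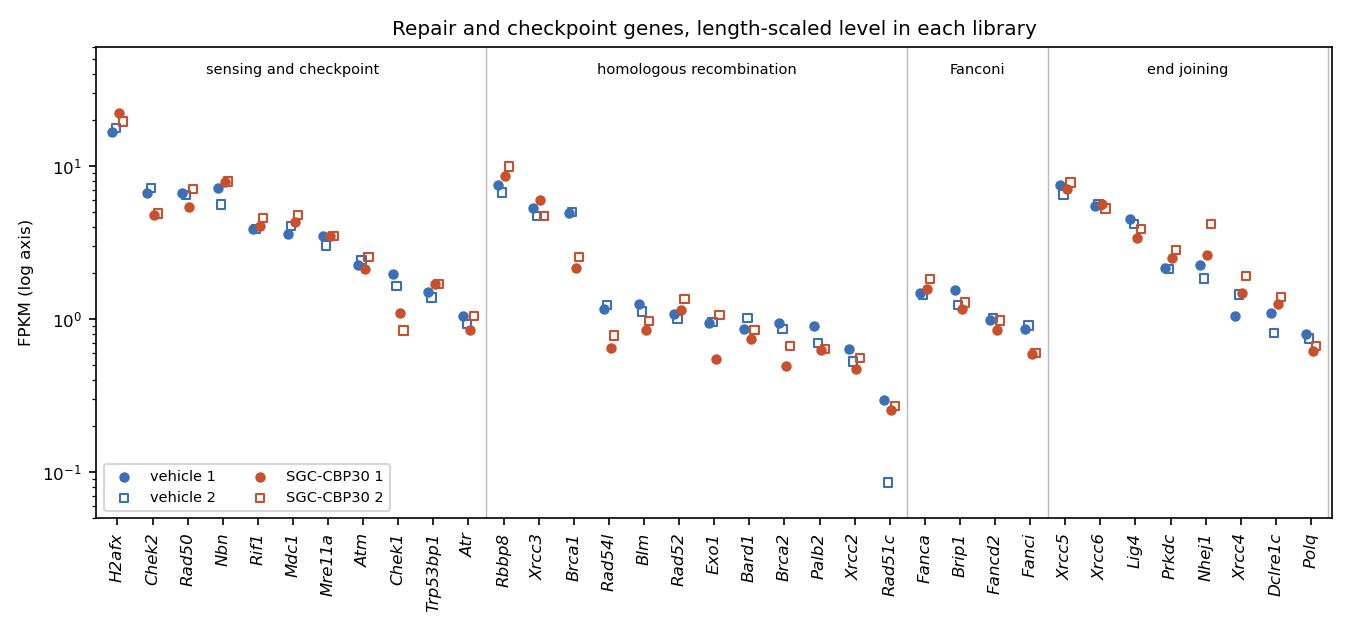
FPKM of each gene in each of the 4 libraries is plotted on a log axis, by role and in the order of the vehicle mean (blue, vehicle; red, SGC-CBP30; circles, replicate 1; open squares, replicate 2). H2afx lies highest in every library, and the red points of Brca1 and Chek1 lie clear below the blue ones.

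Both checkpoint kinase genes fell, and none of the damage sensing genes passed the test. Of the 11 genes in this group 2 were lower, 0 were higher and 9 did not pass, with a median log2 fold change of 0.099 against 0.010 over all tested genes. The share called was 18.2%, against 30.0% of all tested genes. At an unadjusted p under 0.05 there were 3 higher, and DESeq2 called 0 higher. Scaled by library totals, 4 genes of the group were higher (Nbn, H2afx, Mdc1 and Trp53bp1).

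Chek1 encodes CHK1, the effector kinase of ATR that restrains origin firing and entry into mitosis. It had 9.17 and 7.65 CPM in vehicle and 5.06 and 3.93 CPM in SGC-CBP30 libraries, so both treated libraries lay below both controls. It was 1.88-fold lower, a log2 fold change of -0.91 ± 0.22 (SE, edgeR adjusted p = 0.00223), and -0.74 with SGC-CBP30 replicate 2 left out (adjusted p = 0.0195). Chek2 encodes CHK2, the effector kinase of ATM. Its levels were 20.3 and 21.6 CPM in vehicle and 14.5 and 14.8 CPM in SGC-CBP30 libraries. The replicates lay close together and the groups apart, at a log2 fold change of -0.51 ± 0.13 (adjusted p = 0.00305), and -0.53 with SGC-CBP30 replicate 2 left out (adjusted p = 0.00498).

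The kinase genes upstream of them, Atm and Atr, did not pass the test. Atm had 23.4 and 25.3 CPM in vehicle and 22.1 and 26.4 CPM in SGC-CBP30 libraries. Its level under SGC-CBP30 was 99.6% of vehicle with a 95% interval of 84.1% to 118%. Atr, at 24.9 and 21.9 against 20.2 and 24.9 CPM, was at 96.3% (80.6% to 115%). For both genes the groups overlapped.

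The 3 genes of the MRN complex did not pass either. Rad50, which tethers the ends, was at 94.8% of vehicle (95% interval 80.8% to 111%) and Mre11a, the nuclease, at 107% (89.7% to 128%). Nbn, which encodes the NBS1 subunit that recruits ATM, had 18.2 and 14.3 CPM in vehicle and 20.0 and 20.2 CPM in SGC-CBP30 libraries. Its log2 fold change of 0.30 ± 0.13 missed the threshold (adjusted p = 0.0914), but was 0.50 and past it without vehicle replicate 1 (adjusted p = 0.0251).

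Genes of the chromatin around the break did not pass, though the intervals of H2afx at 121% of vehicle (103% to 142%) and Mdc1 at 118% (102% to 138%) lay above 100%, as did that of Nbn at 123% (102% to 150%). H2afx had 23.5 and 24.6 CPM in vehicle and 31.0 and 27.3 CPM in SGC-CBP30 libraries, a log2 fold change of 0.28 ± 0.11 (adjusted p = 0.0631), which passed without SGC-CBP30 replicate 2 (0.37, adjusted p = 0.0188). Mdc1, the adaptor that reads phosphorylated H2AX, had 0.24 ± 0.11 (adjusted p = 0.0903), and passed without SGC-CBP30 replicate 1 (0.31, adjusted p = 0.0346). Trp53bp1, whose product 53BP1 shields ends from resection, had 0.24 ± 0.12 (adjusted p = 0.140), and Rif1, its partner in that role, 0.16 ± 0.09 (adjusted p = 0.221). In each of these 4 genes both SGC-CBP30 libraries lay above both vehicle libraries, an order found in one direction or the other in 63.1% of all tested genes.

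Among recombination genes Brca1, Brca2 and Rad54l fell and Rbbp8 rose. Of 12 genes 3 were lower, 1 was higher and 8 did not pass, with a median log2 fold change of -0.23. The share called, 33.3%, was near the 30.0% of all tested genes, and DESeq2 called 2 lower and 0 higher. The sum over the group was 150 and 141 CPM in vehicle and 111 and 128 CPM in SGC-CBP30 libraries, 82.1% of vehicle. Brca1 fell most in CPM, from a mean of 42.7 to 20.1, while Rbbp8 rose from 27.6 to 36.1. Of the 12 genes 8 had a log2 fold change below zero. Without Brca1, a sum formed after the values were seen, the other 11 genes had 108 and 98.1 CPM in vehicle and 93.0 and 106 CPM in SGC-CBP30 libraries. That was 96.6% of vehicle with overlapping groups. The rise of Rbbp8 is part of this sum, so it does not show that the other genes were unchanged.

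Brca1 (ENSMUSG00000017146, GRCm38 chromosome 11, 101488764 to 101551955, minus strand) encodes a ubiquitin ligase subunit that promotes end resection. It had 752 and 682 counts in vehicle and 312 and 384 counts in SGC-CBP30 libraries, which is 42.6 and 42.7 CPM against 18.3 and 21.9 CPM. The vehicle libraries agree closely and both treated libraries lie far below them. It was 2.12-fold lower, with a log2 fold change of -1.08 ± 0.11 (SE, adjusted p = 2.36e-08), and -1.22 without SGC-CBP30 replicate 2. Among all 14684 tested genes 731 (4.98%) had a log2 fold change at or below that of Brca1. On the same build the other called genes lay as follows, Rbbp8 left aside because its position differs from the annotation: Chek1 (chromosome 9, 36708482 to 36727065), Chek2 (chromosome 5, 110839979 to 110874145), Brca2 (chromosome 5, 150522630 to 150570329), Rad54l (chromosome 4, 116094264 to 116123690), Prkdc (chromosome 16, 15637866 to 15842235) and Dclre1c (chromosome 2, 3424131 to 3464130). In a bulk sample, fewer cells that express a gene and less of its RNA per cell cannot be told apart.

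Brca2, whose product acts in strand invasion, had 13.0 and 11.8 CPM in vehicle and 6.76 and 9.11 CPM in SGC-CBP30 libraries. Its log2 fold change was -0.64 ± 0.17 (adjusted p = 0.00666) and -0.87 with SGC-CBP30 replicate 2 left out (adjusted p = 0.000363). With SGC-CBP30 replicate 1 left out it no longer passed (-0.45, adjusted p = 0.0786), and DESeq2 did not call it (adjusted p = 0.0677). Rad54l, the gene of a motor protein that acts in strand exchange, had 9.12 and 9.59 CPM in vehicle and 5.0 and 6.04 CPM in SGC-CBP30 libraries. Its log2 fold change was -0.76 ± 0.20 (adjusted p = 0.00458) and -0.90 with SGC-CBP30 replicate 2 left out (adjusted p = 0.00211). Of its exonic bases, 15.4% overlap exons of Lrrc41 on the other strand, a gene with 3238 counts over the 4 libraries against 505 for Rad54l, so its count is uncertain where strand was not used.

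Rbbp8 encodes CtIP, which starts end resection together with MRN, and moved the other way. It had 29.3 and 26.0 CPM in vehicle and 33.6 and 38.7 CPM in SGC-CBP30 libraries. The groups did not overlap, and the log2 fold change was 0.39 ± 0.11 (adjusted p = 0.00828). It no longer passed when SGC-CBP30 replicate 2 was left out (0.28, adjusted p = 0.0700) or vehicle replicate 2 was (0.31, adjusted p = 0.115), nor with DESeq2 (adjusted p = 0.0581).

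The other 8 recombination genes did not pass. Bard1, whose product is the obligate partner of BRCA1 in the ligase, had 4.93 and 5.77 CPM in vehicle and 4.23 and 4.84 CPM in SGC-CBP30 libraries, 85.0% of vehicle with an interval of 60.7% to 119%. Palb2, which bridges BRCA1 to BRCA2, was at 79.1% (56.9% to 110%) and Blm, the helicase gene of double Holliday junction dissolution, at 76.6% (59.7% to 98.3%, adjusted p = 0.102). Exo1, a resection nuclease gene, split the treated libraries: it had 7.98 and 8.09 CPM in vehicle but 4.64 and 9.0 CPM in SGC-CBP30 replicates 1 and 2. Its log2 fold change was -0.23 with both. It was -0.79 with replicate 1 as the only treated library (adjusted p = 0.0150) and 0.16 with replicate 2 as the only one (adjusted p = 0.671). The strand exchange genes Xrcc2 (-0.18 ± 0.30), Xrcc3 (0.085 ± 0.15) and Rad51c (0.44 ± 0.55) and the annealing factor gene Rad52 (0.26 ± 0.21) had wide intervals that include zero.

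**Figure D3:**
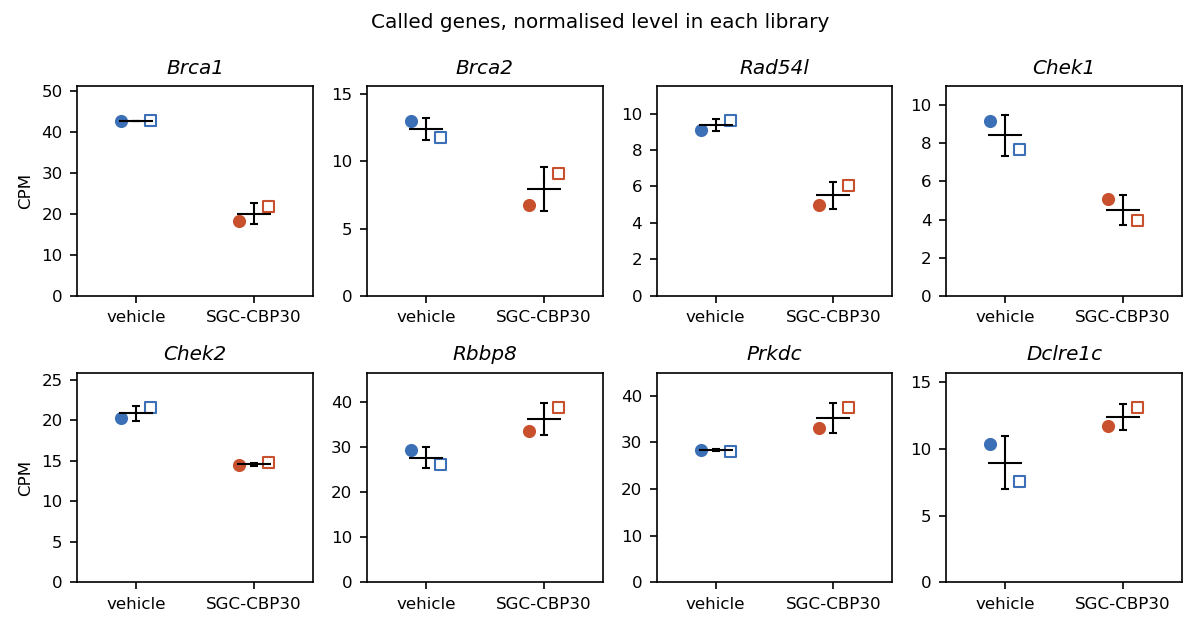
CPM of the 8 called genes in each library is plotted from zero, with vehicle in blue and SGC-CBP30 in red, circles for replicate 1, open squares for replicate 2, and bars for the mean and SD of 2 libraries. The groups do not overlap in any panel, and the gap is widest for Brca1, at 42.7 ± 0.112 against 20.1 ± 2.50 CPM.

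Of the genes that fell, 4 are shown with their promoter sequence. They were picked because each holds a motif that is known in promoters of cell cycle genes. That each of them holds one is therefore not a result. RefSeq windows of GRCm38.p6, 250 bases before to 50 after each start and 300 bases in all, were at hand for 26 of the 35 genes by symbol or gene identifier. Sequences run 5′ to 3′ on the gene's strand. Capitals mark the E2F motif in runs of 8 letters (TTTCCCGC, TTTCGCGC, TTTGCCGC or TTTGGCGC, on either strand) and the CCAAT box in runs of 5 letters (CCAAT on either strand).
Brca1 (chr11:101551906-101552205, minus strand): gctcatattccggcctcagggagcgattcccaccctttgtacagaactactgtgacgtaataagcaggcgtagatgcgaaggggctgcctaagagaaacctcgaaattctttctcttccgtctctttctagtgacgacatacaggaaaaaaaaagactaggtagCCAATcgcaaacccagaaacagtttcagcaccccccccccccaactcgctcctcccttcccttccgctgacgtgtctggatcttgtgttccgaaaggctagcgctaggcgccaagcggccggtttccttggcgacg
Brca2 (chr5:150522371-150522670, plus strand): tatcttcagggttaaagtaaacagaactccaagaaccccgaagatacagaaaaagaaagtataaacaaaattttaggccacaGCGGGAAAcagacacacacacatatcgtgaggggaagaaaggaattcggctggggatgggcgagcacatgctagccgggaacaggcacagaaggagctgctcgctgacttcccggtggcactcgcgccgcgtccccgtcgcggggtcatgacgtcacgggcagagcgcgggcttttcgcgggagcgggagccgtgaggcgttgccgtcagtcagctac
Rad54l (chr4:116123641-116123940, minus strand): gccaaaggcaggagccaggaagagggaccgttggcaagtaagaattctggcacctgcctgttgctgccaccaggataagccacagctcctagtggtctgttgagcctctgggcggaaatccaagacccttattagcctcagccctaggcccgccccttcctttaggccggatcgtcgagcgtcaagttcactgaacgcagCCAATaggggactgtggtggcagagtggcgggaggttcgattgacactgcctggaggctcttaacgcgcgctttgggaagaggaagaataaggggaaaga
Chek2 (chr5:110839733-110840032, plus strand): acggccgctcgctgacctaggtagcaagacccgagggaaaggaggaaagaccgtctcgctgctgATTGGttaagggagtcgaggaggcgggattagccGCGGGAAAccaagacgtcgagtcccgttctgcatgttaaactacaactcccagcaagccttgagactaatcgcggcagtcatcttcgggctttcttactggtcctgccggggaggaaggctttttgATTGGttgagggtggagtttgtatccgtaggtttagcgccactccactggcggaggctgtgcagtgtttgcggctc

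Brca2 and Chek2 held the E2F motif, and Brca1, Rad54l and Chek2 a CCAAT box. The window of Chek1, which is not printed, held no exact match of either. Its last letters are GCGGGAA, the E2F motif on the other strand (GCGGGAAA) without its last letter. Over the 26 genes with a window, 6 (23.1%) held the E2F motif, namely Bard1, Brca2, Chek2, Mdc1, Rad51c and Xrcc6, against 4.5% of the 10395 tested genes with a window and 2.3% of all 32851 windows. The CCAAT box was found in 14 of the 26 genes (53.8%), against 42.9% of those tested genes. The CHR element, TTTGAA on either strand, was found in Bard1 and Polq only (7.7%), against 14.5%. The 6 genes that held the E2F motif had a median log2 fold change of -0.13 and the 20 that did not had -0.030, with 4 of the 6 and 11 of the 20 below zero. Of the 5 genes that fell 2 held the E2F motif. No test was made of these small counts. A match of letters is a description and does not show that a factor binds there.

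None of the 4 Fanconi genes passed the test (edgeR), against 30.0% of all tested genes, and DESeq2 called 0. An unadjusted p under 0.05 was found for 1 of the 4, against 5745 of all 14684 tested genes. With so few genes, these counts do not set the group apart from genes in general. Fanci, whose product forms a clamp with FANCD2, had 5.04 and 5.26 CPM in vehicle and 3.41 and 3.47 CPM in SGC-CBP30 libraries. The replicates lay close together and the groups apart, yet with 58 to 89 counts a library its log2 fold change of -0.58 ± 0.25 did not pass (adjusted p = 0.0845). Of its exonic bases, 16% overlap exons of Polg on the other strand, as do 15% of those of Trp53bp1 with Tubgcp4 and 10.5% of those of Fanca with Zfp276, so these counts carry the same uncertainty. Fancd2 itself was at 90.7% of vehicle (69.0% to 119%), and Brip1, the gene of a helicase that binds BRCA1, at 87.6% (68.5% to 112%). Fanca, a subunit of the core complex that modifies the clamp, was at 117% (95.1% to 143%).

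Of the 8 end joining genes 5 had a log2 fold change above zero and 3 below, against 7517 above and 7167 below of all 14684 tested genes. The test called 2 higher and 0 lower, and 6 did not pass, with a median log2 fold change of 0.20. The share called, 25%, was near the 30.0% of all tested genes. At an unadjusted p under 0.05 there was 1 lower, and DESeq2 called 0 in either direction. The median was 0.12 without vehicle replicate 2 and 0.12 without SGC-CBP30 replicate 2.

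Prkdc encodes DNA-PKcs, the kinase that the Ku ring recruits to DNA ends. It had 28.4 and 28.1 CPM in vehicle and 33.0 and 37.5 CPM in SGC-CBP30 libraries, so the groups did not overlap. Its log2 fold change was 0.32 ± 0.11 (adjusted p = 0.0240). Leaving out vehicle replicate 1 gave an adjusted p of 0.0968, vehicle replicate 2 gave 0.111, SGC-CBP30 replicate 2 gave 0.175 (log2 fold change 0.22) and DESeq2 gave 0.131, so the call did not hold in any of these. Dclre1c encodes Artemis, the nuclease that DNA-PKcs activates to open hairpins and trim ends. It had 10.4 and 7.58 CPM in vehicle and 11.7 and 13.1 CPM in SGC-CBP30 libraries, with a log2 fold change of 0.46 ± 0.17 (adjusted p = 0.0437). That call did not hold with vehicle replicate 2 left out (0.26, adjusted p = 0.406), with SGC-CBP30 replicate 2 left out (0.38, adjusted p = 0.166) or under DESeq2 (adjusted p = 0.223).

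The Ku genes stayed near vehicle, with Xrcc5 (Ku80) at 106% and an interval of 88.1% to 127%, and Xrcc6 (Ku70) at 97.9% and an interval of 83.5% to 115%. The genes of the ligation step pointed in different directions without passing. Lig4, the ligase gene, had 23.8 and 21.9 CPM in vehicle and 17.6 and 20.2 CPM in SGC-CBP30 libraries (-0.27 ± 0.12, adjusted p = 0.103), and passed without SGC-CBP30 replicate 2 (-0.37, adjusted p = 0.0438). Xrcc4, which holds the ligase, had 4.42 and 6.14 against 6.29 and 8.09 CPM (0.45 ± 0.22, adjusted p = 0.139). Nhej1, the gene of the XRCC4-like factor XLF, had 2.55 and 2.07 against 2.94 and 4.73 CPM. It had the largest positive estimate of the 35 genes, 0.73 ± 0.31, but missed the threshold (adjusted p = 0.0838) and rested on replicate 2 of SGC-CBP30, without which it was 0.34 (adjusted p = 0.591). Without SGC-CBP30 replicate 1 it was 1.03 and passed (adjusted p = 0.0222). Polq, whose polymerase theta joins ends at short homologies, was at 82.8% of vehicle (62.3% to 110%).

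Ratios of FPKM within a library show how genes whose products act together stood to each other. The Brca1 to Bard1 ratio was 5.73 and 4.92 in vehicle and 2.87 and 3.0 in SGC-CBP30 libraries. Both treated libraries lay below both controls, since Brca1 was lower while Bard1 was not shown to change. The Lig4 to Xrcc4 ratio was 4.36 and 2.88 in vehicle and 2.27 and 2.02 in SGC-CBP30 libraries, and the Fancd2 to Fanci ratio was 1.14 and 1.13 against 1.44 and 1.63. The ratio of the Ku genes, Xrcc5 to Xrcc6, was 1.37 and 1.16 against 1.27 and 1.48 and overlapped between groups. So did the Mre11a to Rad50 ratio, at 0.523 and 0.464 against 0.644 and 0.495. The Brca2 to Palb2 ratio was 1.04 and 1.23 in vehicle and 0.783 and 1.04 in SGC-CBP30 libraries, so the groups all but touched. The Rad50 to Nbn ratio was 0.938 and 1.16 against 0.691 and 0.891. With 2 libraries against 2, an exact two-sided permutation test cannot give a p below 0.333, so these ratios are descriptions.

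**Figure D4:**
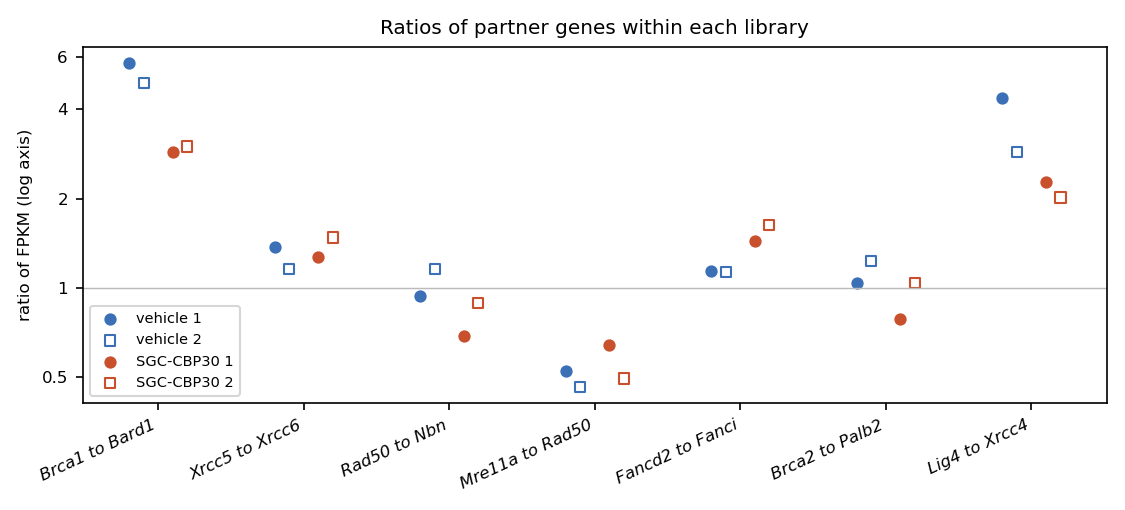
The ratio of FPKM of 7 pairs of partner genes is plotted for each library on a log axis (blue, vehicle; red, SGC-CBP30; circles, replicate 1; open squares, replicate 2). The Brca1 to Bard1 points go from 5.73 and 4.92 to 2.87 and 3.0, while the Xrcc5 to Xrcc6 points intermix.

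Other genes of the same processes, from lists of known members, were called about as often as the 35. Of 92 such genes tested 10 were higher, 8 were lower and 74 did not pass, so 19.6% were called, against 30.0% of all tested genes. In the wider sensing and checkpoint list 3 of 22 were lower and 1 was higher, among them Wee1, which encodes the kinase that holds CDK1 inactive, at 35.5 and 32.0 CPM in vehicle and 26.3 and 22.5 CPM in SGC-CBP30 libraries (-0.47 ± 0.11). Cdc25a, the gene of the phosphatase that opposes WEE1 and that CHK1 marks for degradation, fell as well, from 101 and 90.6 to 76.7 and 76.0 CPM (-0.33 ± 0.08). The replication checkpoint gene Tipin had -0.61 ± 0.17 and the acetyltransferase gene Kat5 had 0.30 ± 0.11. DESeq2 called 2 of the 22 lower and 0 higher (Wee1 and Cdc25a), and the same 2 calls were kept with SGC-CBP30 replicate 2 left out.

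In the wider recombination list 4 of 34 were lower and 3 were higher. Rpa2, a subunit of the complex that coats single-stranded DNA, fell from 17.5 and 16.2 to 13.2 and 10.3 CPM (-0.52 ± 0.15), Rmi1, which acts with BLM, by 0.42 ± 0.12 and the resection nuclease gene Dna2 by 0.45 ± 0.13 on the log2 scale. Uimc1, the gene of the ubiquitin reader RAP80 of the BRCA1-A complex, rose by 0.38 ± 0.12. With SGC-CBP30 replicate 2 left out 6 of the 7 calls were kept, and Rpa2 was lost (-0.36, adjusted p = 0.103). DESeq2 called 0 of the 34 in either direction, and without vehicle replicate 1 the counts were 0 higher and 1 lower.

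In the wider Fanconi list 4 of 18 were higher and 0 were lower, with 1 lower at an unadjusted p under 0.05. Ercc1, whose product pairs with XPF as the nuclease that cuts beside a crosslink, rose from 7.08 and 5.52 to 12.9 and 9.80 CPM, a log2 fold change of 0.84 ± 0.19. Ercc4, which encodes XPF, rose from 19.7 and 22.5 to 27.3 and 28.6 CPM (0.41 ± 0.12). The core complex subunit gene Faap100 (0.52 ± 0.12) and the translocase gene Fancm (0.59 ± 0.19) were higher too. DESeq2 called Ercc1 and Faap100 only, with adjusted p = 0.0712 for Ercc4 and 0.126 for Fancm. Fancm also lost its call with SGC-CBP30 replicate 2 left out (0.32, adjusted p = 0.297), while the other 3 kept theirs, and 1 gene was lower without vehicle replicate 1. In the wider end joining list 2 of 18 were higher and 1 was lower. Parp3 rose by 0.59 ± 0.17 and Tdp2, whose product removes topoisomerase 2 from ends, fell by 0.29 ± 0.07 on the log2 scale. All 3 calls were kept with SGC-CBP30 replicate 2 left out, where 4 were higher and 1 lower in all. DESeq2 called 0 of these higher and 1 lower, and without vehicle replicate 1 there were 0 higher and 1 lower.

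Some cell cycle genes were also lower in SGC-CBP30 libraries, and others did not pass. Of 35 S phase genes 12 were lower and 0 were higher, with a median log2 fold change of -0.23, and of 35 genes of G2 and mitosis 17 were lower and 0 were higher, with a median of -0.33. All tested genes were called lower in 16.3% of cases. The log2 fold change was below zero in 31 of the S phase genes and in 34 of the G2 and mitosis genes. Over all 14684 tested genes it was below zero in 7167. In the S phase list 23 genes did not pass, such as Pole at 99.0% and Slbp at 99.1% of vehicle, and in the other list 18 did not, such as Mki67 at 96.4% and Foxm1 at 106%. These 4 examples were chosen after their values were seen, and do not show that the other genes that did not pass were unchanged. At an unadjusted p under 0.05 there were 0 higher in either list, and DESeq2 called 0 higher with 6 and 4 lower. Without vehicle replicate 1 the counts lower were 5 and 9, and without vehicle replicate 2 they were 10 and 11. With SGC-CBP30 replicate 2 left out they were 12 and 18. Scaled by library totals, the S phase count was 8. The replication helicase gene Mcm7 had 67.8 and 67.9 CPM in vehicle and 46.4 and 50.6 CPM in SGC-CBP30 libraries, and the nucleotide reductase genes Rrm1 and Rrm2 had log2 fold changes of -0.48 ± 0.09 and -0.46 ± 0.09. Ccnb1, the mitotic cyclin gene, went from 38.1 and 36.4 to 26.3 and 26.2 CPM, and Birc5 and Ube2c had -0.57 ± 0.12 and -0.42 ± 0.09.

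The sum over the S phase list was 986 and 953 CPM in vehicle and 788 and 805 CPM in SGC-CBP30 libraries, 82.2% of vehicle, and that over the G2 and mitosis list was 82.7% of vehicle. Of the S phase genes 1, and of the G2 and mitosis genes 0, had a log2 fold change at or below that of Brca1, and the same counts held for Chek1, Rad54l and Brca2. For Chek2 the counts were 2 and 2. These genes are given because they were called lower, so their low place among cell cycle genes follows in part from that choice. Taken as a percent of the summed S phase CPM of its own library, Brca1 stood at 4.32 and 4.49 in vehicle and 2.33 and 2.72 in SGC-CBP30 libraries, 57.3% of vehicle. On that scale Chek1 was at 65.2%, Rad54l at 71.7%, Brca2 at 78.0%, Fanci at 81.2% and Chek2 at 85.1% of vehicle, and in these 6 genes the groups did not overlap. In 21 of the 35 genes both SGC-CBP30 libraries lay above both vehicle libraries on that scale, among them Nhej1 at 202%, Dclre1c at 168%, Rbbp8 at 159%, Prkdc at 151%, Mre11a at 131%, Atm at 121% and Xrcc6 at 119% of vehicle. The scale itself lifts every gene, since the S phase sum it divides by was lower in SGC-CBP30 libraries. In the remaining 8 genes the groups overlapped, with Bard1 and Exo1 at 103% and Blm at 93.3%. How often genes outside the 35 are separated on this scale was not computed. The counts of 21, 6 and 8 therefore have no background and describe these genes only. What part the lower cell cycle genes had in the lower repair genes was not tested.

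**Figure D5:**
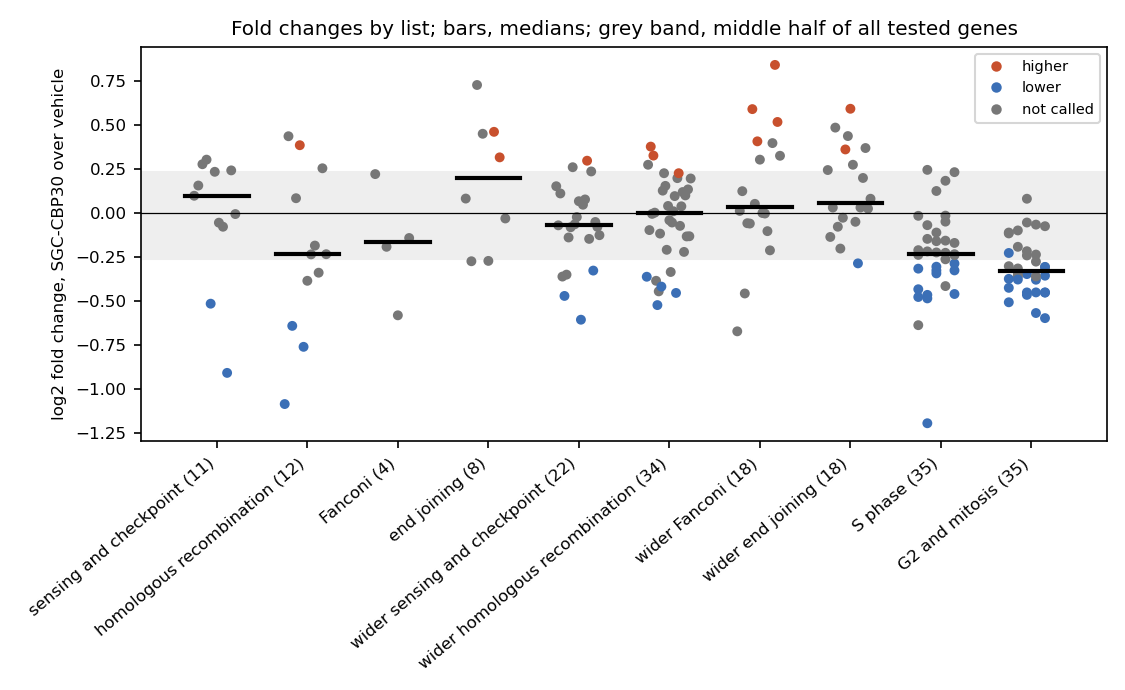
The log2 fold change of each tested gene is plotted by list, with the number of genes in brackets, called genes in colour, a bar at each median and a grey band between the quartiles of all tested genes. The medians of the S phase and the G2 and mitosis lists lie at -0.23 and -0.33, and Brca1 and Chek1 lie below nearly all genes of both.

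The 2 SGC-CBP30 libraries differed from each other in these genes. In 30 of the 35 genes (85.7%) replicate 2 had the higher CPM, against 48.5% of all tested genes, and the sum over the 35 genes was 527 CPM in replicate 1 and 584 CPM in replicate 2. The vehicle libraries summed to 576 and 550 CPM, so the groups overlapped in this sum. The median log2 fold change of the 35 genes, -0.030 with all libraries, was -0.14 without SGC-CBP30 replicate 2 and 0.095 without SGC-CBP30 replicate 1. The sign of that median therefore depended on which treated library was kept, while Brca1, Chek1, Chek2 and Rad54l were called lower with either. The cell cycle sums differed less between these libraries, at 788 and 805 CPM for S phase and 861 and 906 CPM for G2 and mitosis. The reason for the difference between the libraries was not tested.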

How the data were processed

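Each library was a sample of total RNA from irradiated organoids. Tools listed in the submitters' processing notes, without roles, are featureCounts 1.5.0-p3, HISAT2 2.0.5 and StringTie 1.3.3b, and the build listed is mm9, whereas 98.5% of the gene coordinates equal those of GENCODE M21 on GRCm38, which is used here. Per the file headers, the authors deposited raw counts per gene and library, FPKM, group means (a signal on the scale of normalized counts), and a log2 fold change with its p-value, raw and adjusted, whose test is not given in the sources used here. Strand use and multiply mapped reads are likewise not given. The last line of the table, held in part, was dropped.

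The counts were tested with edgeR 4.0.16 in R 4.3.3: filterByExpr, TMM, robust dispersions, quasi-likelihood F test of treatment without covariates, Benjamini-Hochberg adjustment over 14684 genes, called at an adjusted p under 0.05. An SE is the log2 fold change divided by the square root of F, and 95% intervals use the moderated degrees of freedom. CPM use TMM-scaled totals. The 35 genes and all lists were chosen with earlier results of these data known. Text values go to each called gene and, in the wider and cell cycle lists, to called genes of smallest p, except some not reported here. The script was tested on simulated data. Alternatives were RLE scaling, library totals, 2 other filters, DESeq2 1.42.0, a replicate block and leaving out each library. Replicates differed by more than counting noise (chi-square per degree of freedom 2.97 for vehicle and 6.22 for SGC-CBP30). Nothing in the labels says that they are separate cultures or animals, so each p-value reflects only library-to-library spread, which may be technical.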

Additional observations from a re-analysis of the deposited data

How the results depend on the processing

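Of all genes 4401 were called, 2722 with DESeq2, and 2899 to 4557 without 1 library (2899 without vehicle replicate 2). Library totals as the scale gave 2907 higher and 1924 lower in place of 2004 and 2397. Of the 35 genes 3 were higher, with 7 under library totals, 0 with DESeq2 and 0 to 5 without 1 library (0 with vehicle replicate 2 left out, 1 and 5 with SGC-CBP30 replicate 2 and 1 left out), and 5 were lower, with 4 to 7 without 1 library. The median log2 fold change of the 35 genes ranged from -0.14 to 0.095 without 1 library. RLE scaling and both other filters left every call among the genes tested as it was (34 of the 35 with at least 50 counts in 2 libraries). The cause of these differences was not tested. With the replicate number as a block, 4703 genes were called, and 4 of the 35 were higher and 5 lower, with H2afx added (adjusted p = 0.0449). Same-numbered libraries did not deviate together (correlation across all tested genes -0.024, and 0.14 across the 35 genes), and nothing in the labels pairs them, so they are taken to share only a number. Depth limits Rad51c, Nhej1, Xrcc2 and Fanci most.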
